A study of Mus musculus with 8 samples.

Results

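Complex I of the respiratory chain is the largest of the enzyme assemblies that pass electrons to oxygen in the inner mitochondrial membrane. It takes electrons from NADH, hands them to ubiquinone and pumps protons as it does so. Its matrix arm holds the flavin and the iron-sulfur clusters that carry the electrons, and its membrane arm holds the proton pumps. In brown fat, whose mitochondria burn fuel to make heat, transcripts of its subunits are abundant. The subunits described here are 35 nuclear-encoded ones, taken by symbol from a fixed list, and all 35 were found among the 11234 genes of the authors' table. All passed the filter of a mean of at least 1 RPKM, the read count scaled to the length of the gene model and to the library total.

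Interscapular brown fat came from male C57BL/6 mice aged 12 weeks that had been kept for 2 weeks at 29 °C, near thermoneutrality, and were killed at 5 PM (zeitgeber time 10 h). RNA depleted of ribosomal RNA was sequenced. Both genotypes carry a floxed Hdac3 gene, which encodes a histone deacetylase of corepressor complexes. The 4 control libraries (replicates 11, 12, 13 and 14) carry no Cre, and the 4 knockout libraries (replicates 4, 5, 19 and 20) also carry Adiponectin-Cre, which acts in adipocytes and leaves Hdac3 intact in other cells of the depot. Hdac3 itself stood at 7.64 ± 0.511 TMM-scaled RPKM in control and 3.29 ± 0.588 in knockout libraries (SD, n = 4 each), with no overlap.

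TMM scaling multiplies each library by a factor that brings the trimmed mean of the log ratios between libraries to zero. It matters here, because reads on the listed genes made up 17.1% to 20.1% of all reads in control and 21.4% to 25.0% in knockout libraries. Each library held 29039 to 39698 reads on the 35 subunits, and a subunit had 173 to 3494 reads in a library. Of 5 brown adipocyte markers tested 1 was lower and 2 higher, with summed levels of 935.5 to 1202 TMM-scaled RPKM in control and 888.7 to 1035 in knockout libraries. Ucp1 fell from 158.9 ± 40.3 to 4.01 ± 2.90, Cidea rose from 386.4 ± 21.2 to 468.5 ± 48.7 and Elovl3 rose from 0.00868 ± 0.0174 to 4.78 ± 4.17 (SD, n = 4 each). Cox8b, at 506.7 ± 95.5 and 483.7 ± 31.2, and Prdm16 did not pass. The 9 macrophage markers examined were all higher in the knockout, with a summed level of 41.9 to 56.8 TMM-scaled RPKM in control and 87.2 to 102.9 in knockout libraries. Of 6 adipocyte markers 5 were higher and none lower, with sums of 2180 to 2404 and 4540 to 5705. Most of these sums was Fabp4, at 1698 ± 59.8 and 3985 ± 393. By gene, the knockout mean ran from 91.9% of control for Pparg, which did not pass, to 382% for Cidec. Of 8 endothelial markers 2 were lower and none higher (sums of 76.4 to 93.98 and 66.3 to 82.2; none lower and 1 higher with the library total alone), and of 7 fibroblast markers 2 were higher (81.3 to 125.5 and 99.7 to 152.7). None of 10 skeletal muscle markers is among the listed genes. Of all genes tested, 15.9% were lower and 19.4% higher, and 7.17% and 31.9% with the library total alone. No marker list was tested against these shares. The part of these differences in the results on complex I was not tested. In whole tissue, fewer cells of a type and less RNA per cell cannot be told apart.

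Promoter windows of the subunits were searched for 5 motifs of factors known from respiratory genes. The letters AAGATGGC, the core of the YY1 motif, occurred on either strand in 7 of 32 subunits with a RefSeq promoter window (21.9%), in 6.05% of 6476 tested genes with a window and in 2.75% of all 32851 windows. Windows run from 250 bases before to 50 bases after the annotated start. For all 5 motifs a gene counted if any of its windows held the letters. The number of windows per gene was not matched, so shares of subunits and of tested genes can cover unlike amounts of sequence. In all 7 subunits the letters lay on the gene's own strand, beginning 22 to 38 bases after the start. In all 7, too, the ATG within the letters is an annotated start codon in GENCODE M21, so the same bases are part of the coding start. The 7 sites are shown as 30 bases each of GRCm38.p6, read along the gene 5′ to 3′, with the YY1 letters in capitals, since 5 belong to subunits that fell and 2 (Ndufa3 and Ndufs4) to subunits that did not pass.
Ndufa3, chr7:3617384-3617413, plus strand: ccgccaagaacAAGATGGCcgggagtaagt
Ndufa9, chr6:126849097-126849126, minus strand: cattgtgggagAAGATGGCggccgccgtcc
Ndufb8, chr19:44555393-44555422, minus strand: tgaaccgcggagaaggtgAAGATGGCtgcc
Ndufc1, chr3:51408915-51408944, minus strand: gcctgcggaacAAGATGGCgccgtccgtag
Ndufs4, chr13:114388045-114388074, minus strand: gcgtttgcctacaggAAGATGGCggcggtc
Ndufs6, chr13:73328433-73328462, minus strand: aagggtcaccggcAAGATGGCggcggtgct
Ndufs7, chr10:80249462-80249491, plus strand: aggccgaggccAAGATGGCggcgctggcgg

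The other motifs were also searched on both strands, and SP/KLF and ETS letters had lower shares among the subunits than among the tested genes. The SP/KLF letters GGGCGG were in 15 of 32 subunits (46.9%) against 71.6% of tested genes and 35.7% of all windows. ETS letters (CCGGAAG, read by GABPA) were in 4, namely Ndufb6, Ndufb7, Ndufs3 and Ndufs8, which is 12.5% against 22.3% and 8.86%. The NRF1 palindrome (GCGCA followed directly by TGCGC) was in 1, Ndufa11 (3.12% against 2.61% and 0.971%), and the ERR letters TCAAGGTCA in none (tested genes 0.232%, all windows 0.423%). By outcome, the YY1 letters were in 5 of 23 subunits that fell and 2 of 9 that did not pass, and GGGCGG in 10 of 23 and 5 of 9. The 250 bases before the start are shown for the subunits with the deepest falls, Ndufb2 and Ndufab1, and for Ndufs4, which did not fall, with any of the 5 motifs in capitals. The GGGCGG letters, on the opposite strand, in Ndufab1 were the only match in these stretches.
Ndufb2, chr6:39592315-39592564, plus strand: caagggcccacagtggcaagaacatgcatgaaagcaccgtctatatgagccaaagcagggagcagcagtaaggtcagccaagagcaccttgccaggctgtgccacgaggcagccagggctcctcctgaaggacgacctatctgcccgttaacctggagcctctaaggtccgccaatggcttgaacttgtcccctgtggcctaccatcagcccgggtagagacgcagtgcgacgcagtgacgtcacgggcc
Ndufab1, chr7:122101849-122102098, minus strand: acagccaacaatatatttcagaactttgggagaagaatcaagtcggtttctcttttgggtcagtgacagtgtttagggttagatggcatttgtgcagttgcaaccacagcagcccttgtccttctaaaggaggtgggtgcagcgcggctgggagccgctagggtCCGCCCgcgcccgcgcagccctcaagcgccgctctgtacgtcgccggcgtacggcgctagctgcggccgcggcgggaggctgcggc
Ndufs4, chr13:114388095-114388344, minus strand: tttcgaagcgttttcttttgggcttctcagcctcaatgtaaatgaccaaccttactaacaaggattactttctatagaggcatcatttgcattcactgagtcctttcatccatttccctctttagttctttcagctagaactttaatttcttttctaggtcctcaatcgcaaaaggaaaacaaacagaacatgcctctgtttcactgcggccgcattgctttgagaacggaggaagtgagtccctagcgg

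Most complex I transcripts were lower in the knockout, and by a modest amount. Of the 35 subunits, 25 fell and none rose (limma, adjusted p under the threshold of 0.05 over all 8764 genes tested), where 15.9% of all tested genes were lower and 19.4% higher. The median log2 difference was -0.36 over the subunits and 0.007 over all genes tested. Added over the 35 subunits, the TMM-scaled RPKM was 2456, 2847, 2454 and 2821 in control replicates 11 to 14 and 2041, 2096, 2074 and 1994 in knockout replicates 4, 5, 19 and 20. Every knockout library lay below every control library, and the mean sum in the knockout was 77.6% of that in control. In 26 subunits the genotypes did not overlap, with the knockout lower, as in 16.0% of all genes tested. In the authors' deposited table, 25 of the subunits had a negative log2 fold change with an FDR under 0.05, against 16.6% of its genes, and these were the same 25 genes. None had a positive one at that FDR, against 17.0% of its genes.

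**Figure D1:**
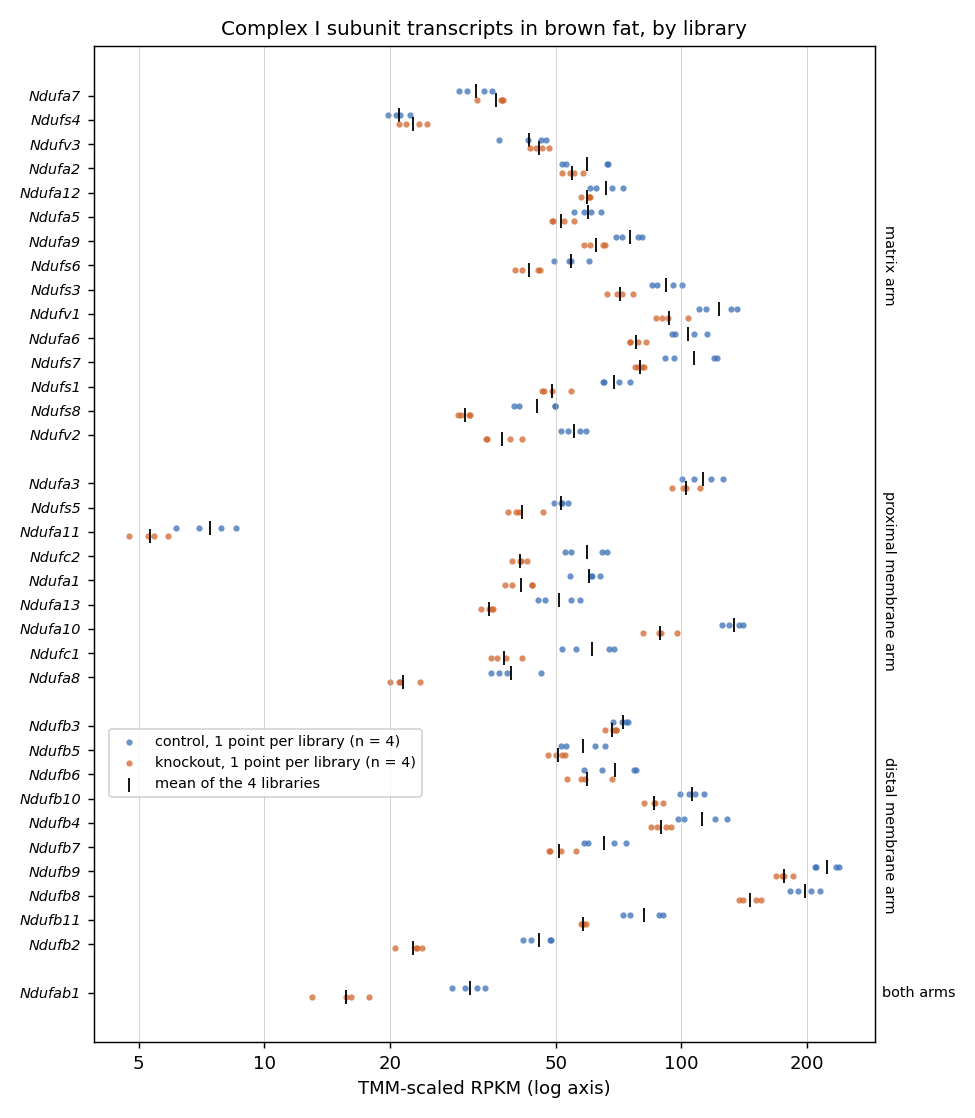
TMM-scaled RPKM (log axis) of the 35 complex I subunits in each of 4 control (blue) and 4 knockout (orange) libraries, grouped by place in the enzyme; black ticks are group means. Ndufb9 and Ndufb8 are the most abundant and Ndufa11 the least, and in 26 subunits all knockout points lie to the left of all control points.

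The number of subunits that fell depended on the scaling more than, with TMM kept, on any single library. Under the other scalings no fit was run without a library. With the library total alone, that is with RPKM as deposited, 13 subunits fell (7.17% of all genes) and 3 rose (31.9% of all genes). With reads on the listed genes as library size, 32 fell (30.2%) and none rose, and with RLE size factors 26 fell (16.4%). Against TMM, the median over all genes moved from 0.007 to 0.137 and -0.11 under the first 2 of these. The 13 that fell under all 4 scalings were Ndufa1, Ndufa8, Ndufa10, Ndufa13, Ndufb2, Ndufb8, Ndufb11, Ndufc1, Ndufc2, Ndufab1, Ndufs1, Ndufs8 and Ndufv2. As deposited, the summed level in control replicate 11 was 2193 RPKM against 2512 to 2648 in the other control libraries and 2107 to 2318 in the knockout. That library had the lowest control value in 31 of 35 subunits on this scale and in 16 on the TMM scale. Control replicate 13 had it in 18 on the TMM scale. Without it, 20 in place of 9 subunits were lower without overlap on the deposited scale. Among all 8 libraries, 7.10% of all genes were lower without overlap on that scale. The share of all genes without that library was not computed, so the rise cannot be set against theirs. On the same scale and in all 8 libraries, 3 subunits were higher without overlap, and the matching share of all genes was not computed. With TMM kept, other filters, pseudocounts, thresholds and left-out libraries, and limma voom, gave 21 to 26 lower subunits and none higher. The count was 25 with no filter (14.1% of genes lower, 16.7% higher) and 26 with a minimum of 5 RPKM (20.2% and 31.6%), with a pseudocount of 0.1 (15.8% and 19.3%) and with limma voom (16.6% and 20.2%). At an adjusted p below 0.01 it was 21 (8.76% and 12.2%). Without control replicate 11, 12, 13 or 14 it was 26, 23, 25 and 23, where 13.4%, 12.7%, 14.1% and 13.3% of all genes were lower and 17.0%, 16.9%, 18.1% and 17.2% higher. Without knockout replicate 4, 5, 19 or 20 it was 25, 25, 24 and 23, where 14.1%, 13.8%, 13.5% and 13.8% were lower and 17.7%, 17.4%, 17.1% and 17.1% higher. On the TMM scale, the count lower without overlap went from 26 to 27 without control replicate 11. Here too the matching share of all genes was not computed.

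**Figure D2:**
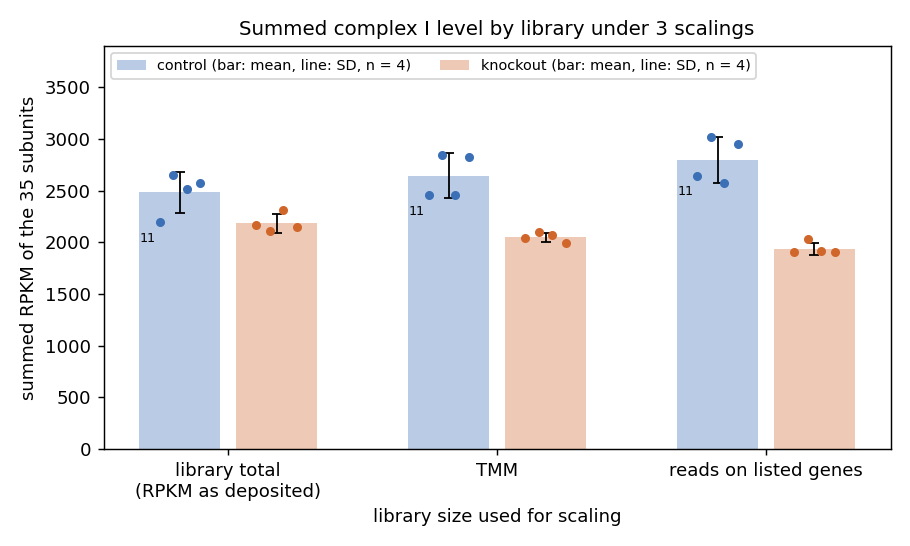
Summed RPKM of the 35 subunits per library (points), with the mean (bars) and SD (lines, n = 4), under 3 scalings. The label 11 marks control replicate 11, which lies among the knockout libraries at 2193 RPKM when the library total is used and above all of them under the other scalings.

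All 6 catalytic core subunits listed, the ones conserved down to bacteria that carry out the electron transfer, were lower, by similar amounts. Their log2 differences lay between -0.56 and -0.36, with a median of -0.45. The list's symbols mix roles: by name 8 of 10 Ndufs and Ndufv genes fell, but Ndufs4, Ndufs5, Ndufs6 and Ndufv3 are accessory subunits. With the library total alone, 3 of the 6 core subunits passed (Ndufs1, Ndufs8 and Ndufv2), all lower. Beside these counts, 15.9% of all genes tested were lower under TMM and 7.17% with the library total.

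Ndufv2, which carries an iron-sulfur cluster beside the flavin, stood at 51.4, 59.1, 53.6 and 57.1 TMM-scaled RPKM in the controls and 34.0, 41.6, 38.8 and 34.1 in the knockouts. Its groups were well apart, with a log2 difference of -0.56 ± 0.086 (SE; adjusted p = 0.000715). Ndufv1, where NADH and the flavin bind, was at 110, 132, 115 and 136 TMM-scaled RPKM in control and 90.0, 104, 87.0 and 92.7 in knockout libraries. The highest knockout library, replicate 5, came close to the lowest control library, and the log2 difference was -0.39 ± 0.093 (adjusted p = 0.00835). Ndufs1, the large iron-sulfur subunit, was measured at 64.9, 71.0, 65.1 and 75.2 TMM-scaled RPKM in control and 46.2, 54.3, 48.9 and 46.7 in knockout libraries (log2 difference -0.49 ± 0.081, adjusted p = 0.00118). Knockout replicate 5 was again the highest of its genotype and still below every control.

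The remaining core subunits line the path from the flavin to ubiquinone. Ndufs8, which holds iron-sulfur clusters of that path, had 40.8, 49.7, 39.7 and 49.8 TMM-scaled RPKM in control and 29.6, 31.2, 31.0 and 29.1 in knockout libraries (log2 difference -0.55 ± 0.089, adjusted p = 0.00103). Ndufs7, which carries the last cluster before ubiquinone, had 96.1, 120, 91.4 and 122 in control and 80.4, 77.4, 78.8 and 81.3 in knockout libraries (-0.42 ± 0.102, adjusted p = 0.0099). For both genes the knockout libraries were tightly grouped, while the controls split into 11 and 13 below and 12 and 14 above. Ndufs3 had 87.2, 95.7, 85.0 and 100 TMM-scaled RPKM in control and 66.5, 76.7, 70.1 and 72.0 in knockout libraries (-0.36 ± 0.080, adjusted p = 0.00592), the smallest difference of the 6.

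Beside the core in the matrix arm, the accessory subunits were split. Of 9, 3 fell (Ndufs6, Ndufa6 and Ndufa9) and 6 did not pass, with a median log2 difference of -0.14. With the library total alone none of the 9 fell and 3 rose, and with the reads on listed genes 6 fell and none rose. The 3 that rose stand beside 31.9% of all genes higher with the library total, a similar share. Shares of all genes lower were 15.9% with TMM, 7.17% with the library total and 30.2% with reads on listed genes. Ndufs6, a zinc-binding subunit of the NADH-oxidising end, had a log2 difference of -0.33 ± 0.081. Ndufa9, related to short-chain dehydrogenases, had one of -0.27 ± 0.076 and an adjusted p of 0.0192, and it lost the call without control replicate 12, control replicate 14 or knockout replicate 20 (adjusted p 0.0536 to 0.0595).

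Ndufs4, Ndufv3 and Ndufa7, singled out after their values were seen, were the subunits with a higher mean in the knockout. Ndufs4, an accessory subunit whose loss in mice causes a Leigh-like encephalopathy, stood at 19.8, 22.4, 21.1 and 20.7 TMM-scaled RPKM in control and 21.9, 23.5, 24.6 and 21.0 in knockout libraries. Ndufv3, an accessory subunit bound near the flavin end, stood at 42.9, 46.0, 36.5 and 47.5 in control and 46.3, 44.8, 48.0 and 43.4 in knockout libraries. The genotypes overlapped in both. Ndufa7, another matrix-arm subunit, was at 30.6, 33.5, 29.3 and 35.1 in control and 37.1, 36.9, 32.4 and 37.4 in knockout libraries. Only knockout replicate 19 lay within the control range of Ndufa7. The log2 differences of Ndufs4, Ndufv3 and Ndufa7 were 0.11, 0.08 and 0.16, and none passed (adjusted p = 0.268, 0.503 and 0.156). With the library total alone all 3 passed as higher, with log2 differences of 0.28, 0.26 and 0.34, and with reads on listed genes they were at -0.05, -0.08 and 0.0. As deposited, Ndufs4 was at 17.7 to 21.6 RPKM in control and 22.7 to 27.5 in knockout libraries, without overlap. Nor did the genotypes overlap for Ndufv3 (37.3 to 43.4 and 45.0 to 53.7) or Ndufa7 (27.3 to 32.1 and 36.2 to 40.3). With the library total, 31.9% of all genes passed as higher. The share of all genes higher without overlap on that scale was not computed.

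The most abundant subunits that did not pass included 2 further ones of the matrix arm. Ndufa12, a relative of the assembly factor Ndufaf2, was at 62.5, 72.6, 60.5 and 68.0 TMM-scaled RPKM in control and 60.1, 60.3, 57.3 and 60.1 in knockout libraries. The groups just failed to overlap, with a log2 difference of -0.14 ± 0.075 (adjusted p = 0.165). Ndufa5 stood at 55.3, 64.1, 58.5 and 60.8 in control and 52.4, 55.4, 49.1 and 48.9 in knockout libraries. It lay at the edge of the threshold, with a log2 difference of -0.21 ± 0.075 (adjusted p = 0.0503), and passed as lower with RLE factors, reads on listed genes, a pseudocount of 0.1, a minimum of 5 RPKM or limma voom. Ndufa2 completed the 6, with a log2 difference of -0.10 ± 0.099 and overlapping libraries.

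In the proximal membrane arm, which links the matrix arm to the pumps, most members fell. Of 9 subunits 8 fell, with a median log2 difference of -0.53 (6 with the library total alone, all 9 with reads on listed genes, none higher under either). Among all genes tested, 15.9% were lower with TMM, 7.17% with the library total and 30.2% with reads on listed genes. Ndufa8, a twin-cysteine protein of the intermembrane-space side, stood at 38.2, 46.08, 36.49 and 35.03 TMM-scaled RPKM in control and 20.05, 21.14, 23.63 and 21.02 in knockout libraries. No knockout library came near the controls, and expression averaged 55.1% of control (log2 difference -0.83 ± 0.094, adjusted p = 0.000122). Ndufa10, a subunit with a nucleoside kinase fold, was at 130, 141, 125 and 138 in control and 81.0, 97.8, 89.3 and 88.1 in knockout libraries (-0.58 ± 0.079, adjusted p = 0.000383). That took it from the third to the sixth most abundant of the 35 by length-scaled level.

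Smaller proteins of the same arm moved with them. Ndufa1, a short X-linked membrane protein, was at 54.2, 60.7, 61.1 and 63.6 TMM-scaled RPKM in control and 39.3, 43.8, 43.8 and 37.7 in knockout libraries (log2 difference -0.53 ± 0.081, adjusted p = 0.000703). The gap between the genotypes was wider than the range within either. Ndufc1 fell from 60.9 ± 8.44 to 37.6 ± 2.78 and Ndufc2 from 59.4 ± 7.02 to 41.0 ± 1.40 TMM-scaled RPKM (SD, n = 4 each). Ndufa13, also known as GRIM-19, fell from 50.9 ± 5.58 to 34.5 ± 1.04. Ndufa11, the least abundant of the 35, was at 6.98, 8.56, 6.15 and 7.89 TMM-scaled RPKM in control and 5.44, 4.75, 5.86 and 5.27 in knockout libraries. Its lowest control and highest knockout libraries nearly met (-0.40 ± 0.097, adjusted p = 0.00941). Ndufs5 fell with a log2 difference of -0.31.

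Ndufa3 alone in the proximal arm did not pass. It stood at 100, 126, 107 and 118 TMM-scaled RPKM in control and 102, 111, 101 and 95.1 in knockout libraries, overlapping ranges with a log2 difference of -0.13 ± 0.089 (adjusted p = 0.271).

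The distal membrane arm, made of Ndufb subunits around the outer pumps, held both the deepest fall and members that hardly differed. Of 10 subunits 7 fell, with a median log2 difference of -0.33 (3 with the library total alone, all 10 with reads on listed genes, none higher under either). The shares of all genes lower under TMM, the library total and reads on listed genes were 15.9%, 7.17% and 30.2%. Ndufb2, a small accessory subunit, stood at 41.7, 48.3, 43.5 and 48.7 TMM-scaled RPKM in control and 23.1, 23.2, 23.9 and 20.5 in knockout libraries. It averaged 49.8% of control in the knockout, and the lowest control library was far above the highest knockout library (log2 difference -0.97 ± 0.079, adjusted p = 1.48e-05). Ndufb9, the most abundant of the 35, was at 210, 239, 210 and 235 in control and 185, 169, 176 and 174 in knockout libraries (-0.34 ± 0.076, adjusted p = 0.00631). Its knockout libraries were all lower, at 78.7% of control on average.

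Other abundant distal subunits fell by comparable amounts. Ndufb8 went from 198.1 ± 14.5 to 146.1 ± 8.65, Ndufb10 from 106.3 ± 6.03 to 86.1 ± 3.65 and Ndufb11 from 81.6 ± 9.04 to 58.2 ± 0.558 TMM-scaled RPKM (SD, n = 4 each). Ndufb7 and Ndufb4 fell with log2 differences of -0.34 and -0.31. The call of Ndufb4 (adjusted p = 0.0299) was the least stable of the 25, and was lost without control replicate 12 or 14 or knockout replicate 5, 19 or 20, at adjusted p of 0.0509 to 0.0805.

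Ndufb3, Ndufb6 and Ndufb5 did not pass. Ndufb3 was at 72.2, 73.6, 68.6 and 74.7 TMM-scaled RPKM in control and 69.6, 69.5, 68.5 and 65.7 in knockout libraries, with a log2 difference of -0.08 ± 0.064 (adjusted p = 0.368). Its libraries overlapped, and its standard error was the smallest of the 35. Ndufb6 was at 58.4, 77.2, 64.6 and 77.7 in control and 57.5, 58.6, 68.1 and 53.2 in knockout libraries (-0.22 ± 0.112, adjusted p = 0.156). Knockout replicates 5 and 19 lay within the control range of Ndufb6. Ndufb5 had a log2 difference of -0.19 ± 0.090 and overlapping libraries.

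**Figure D3:**
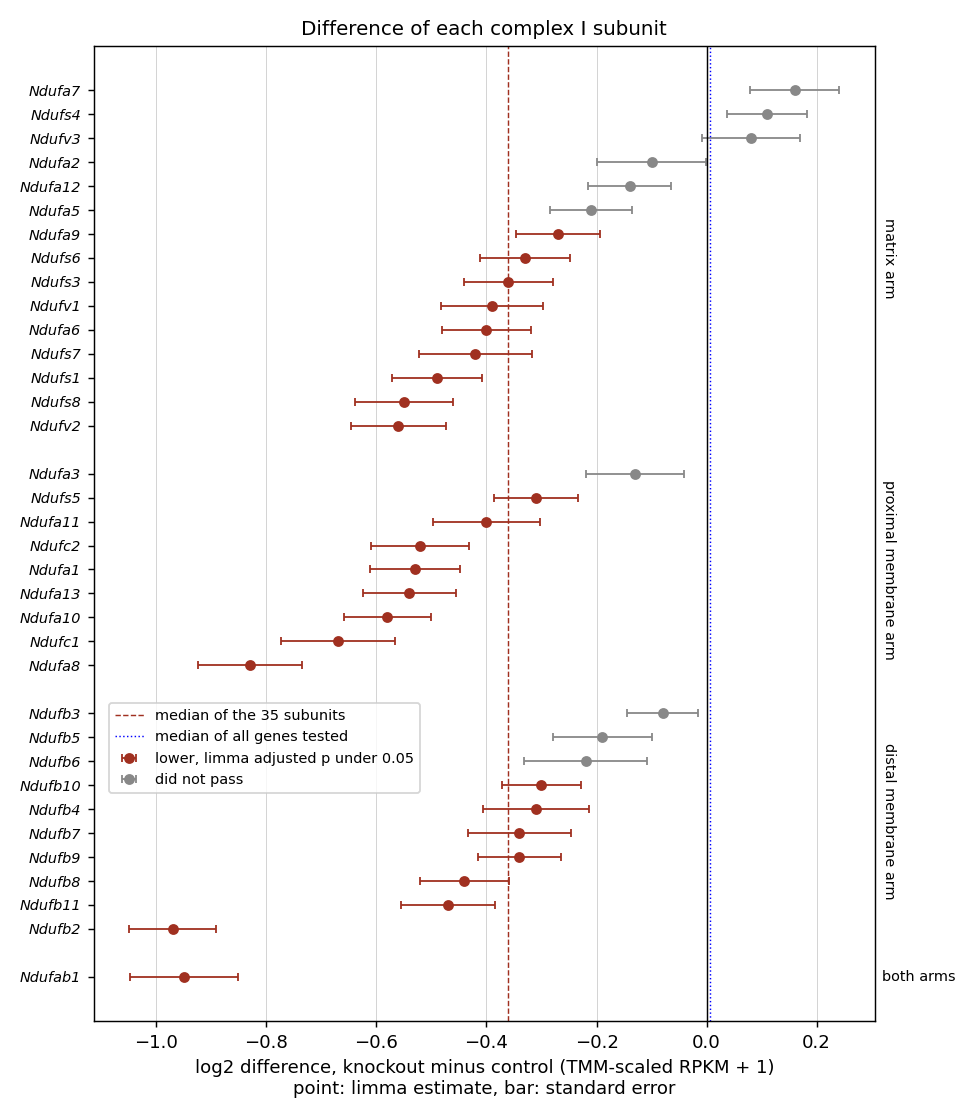
limma log2 difference (knockout minus control, points) with its standard error (bars) for each subunit, grouped by place; red subunits passed the threshold as lower and grey ones did not pass. Ndufb2 and Ndufab1 stand near -1, and Ndufa7, Ndufs4 and Ndufv3 lie above 0 without passing.

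Ndufab1 belongs to both arms. It is the mitochondrial acyl carrier protein, which besides its place in complex I serves mitochondrial fatty acid synthesis and, through LYR-motif partner proteins, iron-sulfur cluster assembly. It stood at 32.4, 33.8, 28.2 and 30.2 TMM-scaled RPKM in control and 13, 15.7, 17.8 and 16.1 in knockout libraries, with wide separation, at 50.3% of control on average (log2 difference -0.95 ± 0.098, adjusted p = 6.35e-05). The LYR subunits that hold it in the enzyme, Ndufa6 in the matrix arm and Ndufb9 in the distal arm, had smaller log2 differences of -0.40 and -0.34.

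All genes were also fitted after each library was scaled to its median complex I level, a choice made after the data were seen. That level is not the zero point of the differences: the median log2 difference of the subunits on this scale was -0.08. The scale is drawn from the subunits themselves, and the median over all genes was 0.214 on it. The shares of all genes on it follow from that choice and are no test of the subunit counts. On this scale 11 subunits passed as lower (4.80% of all genes) and 4 as higher (41.7% of all genes). Those lower were Ndufb2, Ndufab1, Ndufa8, Ndufc1, Ndufa10, Ndufv2, Ndufs8, Ndufa13, Ndufa1, Ndufc2 and Ndufb11, with log2 differences from -0.70 for Ndufb2 to -0.19 for Ndufb11. Those higher were Ndufa7 at 0.44 ± 0.085 (adjusted p = 0.00126), Ndufs4 at 0.39 ± 0.083 (adjusted p = 0.00267), Ndufv3 at 0.37 ± 0.085 (adjusted p = 0.00399) and Ndufb3 at 0.21 ± 0.078 (adjusted p = 0.0483).

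**Figure D4:**
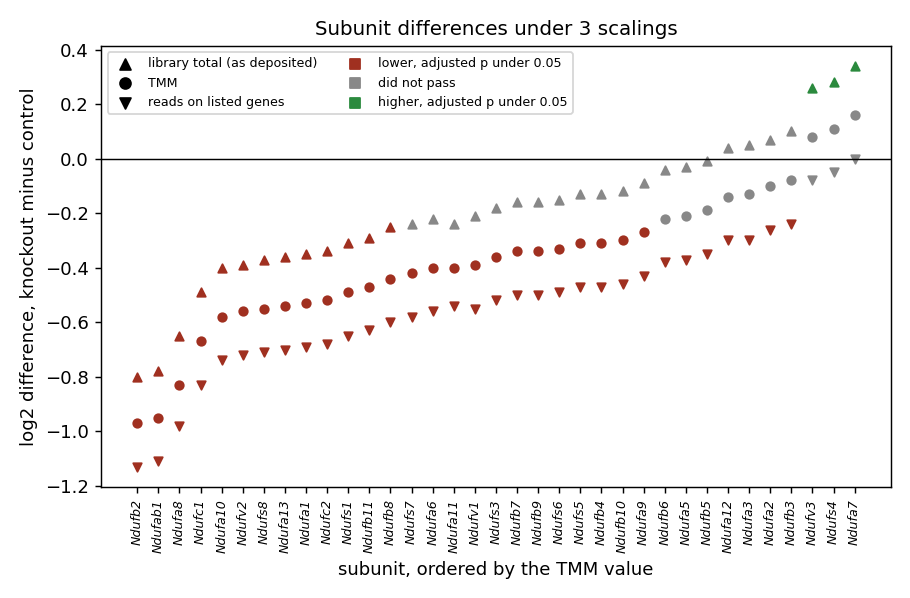
log2 difference of each subunit, in the order of its TMM value, with the library total (upward triangles), TMM (circles) and reads on listed genes (downward triangles) as scaling; red passed as lower, green as higher and grey did not pass. The scalings shift all subunits nearly in parallel, so that 13, 25 and 32 pass as lower, while Ndufb2 remains the lowest and Ndufa7 the highest.

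The order of the subunits by level changed little. In control libraries it ran from Ndufb9 at 223.4 ± 15.6 and Ndufb8 at 198.1 ± 14.5 through Ndufa10 and Ndufv1 down to Ndufab1 at 31.2 ± 2.43, Ndufs4 at 21.0 ± 1.07 and Ndufa11 at 7.40 ± 1.06 TMM-scaled RPKM, a value per length (SD, n = 4). Of 34 neighbouring pairs in this order, 31 had overlapping control ranges. The exceptions were Ndufb8 above Ndufa10, Ndufab1 above Ndufs4 and Ndufs4 above Ndufa11. The ranges were compared without pairing by library, so overlap does not mean that the order varied. Ndufb9, for example, lay above Ndufb8 in every control library though their ranges overlapped. Across the 35 subunits, which share libraries, Spearman's rho between control and knockout levels was 0.94. For the log2 difference, rho was 0.04 with control level and -0.07 with the length of the gene model, which ranged from 349 to 2927 bases.

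Factors that build complex I do not stay in it. Of 19 assembly factors 18 were listed and tested, of which 8 were lower and 1 higher, with a median log2 difference of -0.20, beside 15.9% and 19.4% of all genes tested. Under the library total 1 was lower and 4 higher, beside 7.17% and 31.9% of all genes. With reads on listed genes 12 were lower and none higher, beside 30.2% and 12.4% of all genes. Ndufaf5, a methyltransferase-like factor that modifies Ndufs7, fell from 2.11 ± 0.25 to 1.26 ± 0.105 TMM-scaled RPKM (SD, n = 4 each; adjusted p = 0.00109). Timmdc1, a membrane-arm assembly factor, fell from 3.68 ± 0.13 to 2.75 ± 0.212 (adjusted p = 0.00277), while Tmem186, linked to the same assembly step, rose from 3.09 ± 0.235 to 3.91 ± 0.257 (adjusted p = 0.012). Of 14 tested genes for making iron-sulfur clusters, 5 were lower, among them Iscu, Bola3 and Fdxr, and 1, Hspa9, was higher (15.9% and 19.4% of all genes), with a median log2 difference of -0.12. Scaled by library total, 3 were lower and 4 higher (7.17% and 31.9% of all genes). Bola3, which helps deliver clusters to target proteins, fell from 35.8 ± 3.95 to 22.4 ± 3.11 TMM-scaled RPKM (adjusted p = 0.00113).

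Ndufa4, once counted with complex I and now with complex IV, fell from 356.5 ± 28.7 to 205.7 ± 9.95 TMM-scaled RPKM (SD, n = 4 each). Of 5 genes in a list of Ndufa4 and supercomplex genes, 2 were lower and none higher, beside 15.9% and 19.4% of all genes tested. The other that fell was Higd2a, from 25.2 ± 2.47 to 18.1 ± 1.55. Cox7a2l, which joins complexes III and IV, was at 53.6 ± 4.25 and 52.3 ± 2.48 (adjusted p = 0.759).

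Of 11 tested enzymes and subunits that feed electrons to ubiquinone without complex I, 5 were lower and 2 higher, with a median log2 difference of -0.08, beside 15.9% and 19.4% of all genes. Scaling by library total made 3 lower and 3 higher (7.17% and 31.9% of all genes), and with reads on listed genes 5 and 1 (30.2% and 12.4%). Gpd2, the mitochondrial glycerol-3-phosphate dehydrogenase, fell from 43.3 ± 5.10 to 24.0 ± 1.48 TMM-scaled RPKM (SD, n = 4 each; adjusted p = 9.77e-05). Sdhb, the iron-sulfur subunit of succinate dehydrogenase, fell from 235.5 ± 20.7 to 149.7 ± 7.54 (adjusted p = 0.000269). Sqrdl, the sulfide quinone oxidoreductase, rose from 12.9 ± 1.17 to 20.6 ± 1.83 (adjusted p = 0.000319).

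For the rest of the chain, 7 of 9 complex III, 10 of 12 complex IV and 10 of 15 ATP synthase genes were lower. In these lists 0, 0 and 1 were higher, beside 15.9% of all genes lower and 19.4% higher. With the library total alone 4, 9 and 5 were lower and 1, 0 and 2 higher, beside 7.17% and 31.9% of all genes. The median log2 differences under TMM were -0.34, -0.58 and -0.30, beside -0.36 for complex I. Differences between these lists were not tested. Of 9 tested regulators of nuclear respiratory genes 4 were lower and 1 higher, beside 15.9% and 19.4% of all genes. Perm1, a regulator of oxidative genes in muscle, fell with a log2 difference of -1.21 ± 0.131, and Ppargc1a, a coactivator of the same genes, with one of -0.69. Nrip1, a corepressor of them, rose with one of 0.93. Control means of Perm1, Ppargc1a and Nrip1 were 5.54, 2.21 and 2.02 TMM-scaled RPKM. At such levels the 1 added to each value before the log2 shrinks the difference. Mean TMM-scaled RPKM in the knockout was 33.1%, 44.2% and 235% of control for Perm1, Ppargc1a and Nrip1.

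Some complex I genes have near-identical processed copies in the mouse genome, and the sources used here do not give how shared reads were counted. Genes of the mitochondrial DNA that encode complex I subunits were not analysed here.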

How the data were processed

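RNA-seq of brown fat was analysed from one table of 11234 genes in 8 libraries, 4 per genotype. TopHat2, featureCounts, edgeR and the build mm9 are named in the submitters' processing notes. The sources used here do not give versions, annotation, strand setting or how shared reads were treated. Expression was deposited by the authors as RPKM in each library, per the file headers. Their comparison was deposited as a log2 fold change and an average log2 CPM per gene, with a p-value and an FDR.

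Every RPKM value was a whole number of reads within 0.01 reads, after a factor common to all libraries was corrected in 43 genes. The libraries then held 13619308 to 17986134 reads in all. Such reads are not independent molecules where PCR copies are present, and intervals from them would cover counting error only. No per-sample column was left unused.

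RPKM was divided by TMM factors (trimming 0.3 of ratios and 0.05 of levels) computed from the recovered reads. limma 3.58.1 in R 4.3.3, with a mean-variance trend, was fitted to log2(scaled RPKM + 1) of the 8764 genes with a mean of at least 1 deposited RPKM. P-values were two-sided and adjusted by Benjamini-Hochberg over all of these, with a threshold of 0.05. Whether replicates are separate animals is not stated, so p-values measure the spread between libraries. Without one library, the factors of all 8 were kept. The fit alone was run on simulated counts, with no TMM factors estimated, so the scaling step was not tested. Python 3.11.15 made the tables, with pandas 2.3.3 and numpy 2.4.6, and matplotlib 3.10.9 the figures.

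The subunits, the other gene lists and the tests were chosen with earlier results of these data known. Values per library were given for the 6 catalytic core subunits, the 6 falls with the smallest adjusted p, the 5 most abundant subunits that did not pass and the subunits of highest and lowest control level. Up to 3 genes were named from each other list. The result of 1 list is not reported here. Ndufa7, Ndufs4 and Ndufv3, the partner subunits of Ndufab1 and the fall of Ndufa13 were added after their values were seen, as was the crossing of subunit function with place. Promoter windows are from RefSeq on GRCm38.p6, a build other than mm9, and were matched by symbol.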

Additional observations from a re-analysis of the deposited data

Results flagged for a closer look

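In 72 groups of 4 libraries (35 subunits and their sum, in each genotype), a library far from the other 3 was found in 2, where chance gives about 3.6. Both were knockout replicate 19 and both subunits did not pass the test between genotypes. Ndufa7 stood at 32.4 TMM-scaled RPKM in that library, against 36.9 to 37.4 in the other knockout libraries. Ndufa12 stood at 57.3, against 60.1 to 60.3.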

How the results depend on the processing

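With the library total alone, 13 subunits were lower and 3 higher, their median log2 difference was -0.18, the summed knockout level was 88.0% of control, and 628 of all genes were lower and 2796 higher. With reads on listed genes, the median was -0.52, the sum 69.3%, and 2651 genes were lower and 1087 higher. A minimum of 5 RPKM gave 578 and 907 genes and an adjusted p below 0.01 gave 768 and 1073, with 26 and 21 subunits lower. Relative to the median complex I level, 11 subunits were lower and 4 higher. Signs differed from the TMM result for Ndufa2 (0.07), Ndufa3 (0.05), Ndufa12 (0.04) and Ndufb3 (0.10) with the library total, and for Ndufs4 (-0.05) and Ndufv3 (-0.08) with reads on listed genes. None of those passed. On the complex I scale, where the median subunit difference was -0.08, they differed for Ndufa2 (0.18), Ndufa3 (0.15), Ndufa5 (0.07), Ndufa9 (0.02), Ndufa12 (0.14), Ndufb3 (0.21), Ndufb5 (0.10) and Ndufb6 (0.07). Leaving out each library gave 23 to 26 lower subunits and none higher, medians of -0.40 to -0.32 and sums of 75.7% to 79.6%, and 23 of the 25 stayed lower every time. RLE factors, no filter, a pseudocount of 0.1 and limma voom gave 25 or 26 lower subunits. No paired analysis was possible because the genotypes share no replicate number. Which library size is right was not tested.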
